A study of Mus musculus with 20 samples.

Results

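The transcripts of axons and of the somatodendritic compartment were compared in motoneurons depleted of Tdp-43, using every library that the labels give as Tdp-43 knockdown. These were 12 of the 20 libraries of the series, 6 from the axonal and 6 from the somatodendritic compartment. The other 8 libraries, 4 axonal and 4 somatodendritic, were controls and served only to show where the knockdown comparison differed. All 20 came from primary cultures of spinal motoneurons of CD-1 mouse embryos whose labels name no engineered allele, and which were enriched by p75 panning after removal of the meninges and grown in microfluidic chambers, so that axons pass through channels away from the cell bodies and dendrites. The knockdown cultures carried a lentivirus that expresses a short hairpin RNA (shRNA) against Tdp-43, and the controls carried the empty lentiviral vector, which also makes GFP. The embryos were at mid-gestation by the study's methods, the labels give no number of embryos per library, and each compartment pools all cells or processes on its side of the chamber. Total RNA was pre-amplified without selecting RNA types. The axonal side holds processes of whatever cells send them through the channels, so that the compartment as labelled is a place in the chamber rather than a purified axon.

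Tdp-43, encoded by Tardbp, is a nuclear RNA-binding protein that regulates splicing, stability and transport of many transcripts, and its loss from the nucleus marks most cases of amyotrophic lateral sclerosis (ALS). Motoneuron axons hold their own mRNAs, brought there by transport granules, and translate ribosomal, mitochondrial and cytoskeletal proteins far from the cell body. Levels are relative to the other RNAs of the same library, so that a higher axonal value is a larger share of axonal RNA and not a larger amount.

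Values are fragments per kilobase of transcript, relative to all fragments of the library (FPKM), after scaling the libraries to a common median ratio, called scaled FPKM. Differences are axonal minus somatodendritic on the log2(scaled FPKM + 1) scale, with the standard error (SE) of limma. A gene was called at a limma adjusted p under 0.05. Scaled over all 20 libraries, Tardbp lay between 18.3 and 29.0 scaled FPKM in somatodendritic controls and between 17.6 and 48.4 in axonal controls. In the somatodendritic knockdown libraries it lay between 0 and 6.43. In the axonal knockdown libraries it was 26.9, 1.38, 3.61, 12.95, 14.8 and 12.4 in libraries 1 to 6. The library labelled axonal knockdown 1 therefore lay within the axonal control range, and it is called by its label below. Within the 12 knockdown libraries Tardbp did not pass the test between compartments, with a log2 difference of 1.62 ± 0.69 (SE, limma adjusted p = 0.245). Its exons overlap those of Masp2, a gene of the complement system, which was at 31.8 scaled FPKM in axonal library 2, the library with the lowest axonal Tardbp, and between 0 and 6.71 in the other axonal libraries 1, 3, 4, 5 and 6.

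The libraries differed in depth and in likeness. Between 7632 and 15047 genes were above 0 FPKM in the axonal libraries, and between 9617 and 14538 in the somatodendritic ones. The depth relative to the deepest of the 20 libraries was lowest in axonal library 5 at 0.0913 and in somatodendritic library 6 at 0.149. The median gene above 0 rested on 0.56 to 3.83 fragments as implied by the deposited intervals, so that single genes carry a large counting error. Axonal library 3 correlated with somatodendritic library 4 at Pearson r = 0.842 across genes on the log2 scale, above its highest correlation with an axonal library of 0.783. For axonal library 4 these values were 0.726 and 0.722. Genes are not independent replicates, and these correlations are descriptions. The summed level of 10 pan-neuronal marker genes was also higher in axonal libraries 3 and 4 than in the other 4 axonal libraries. The counts over all genes and of the main gene lists are therefore given with and without libraries 3 and 4. The labels name no culture or animal, so that p-values measure only the spread between these libraries.

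Of 13942 genes tested, 120 were higher in knockdown axons, or 0.861%, and 59 were lower, or 0.423%. At an unadjusted p under 0.05 these counts were 1102 (7.9%) and 1218 (8.74%). The median log2 difference over all genes tested was -0.06. Without axonal libraries 3 and 4, 515 genes were higher (3.72%) and 539 lower (3.89%), and 119 of the 120 and 59 of the 59 remained among them. Both libraries were set aside because each correlated more highly with a somatodendritic library than with any axonal one. A further reason was that they held the most pan-neuronal marker RNA of the axonal libraries. Larger counts without them follow from that choice. Neither these counts nor the calls that remained lend support, here and for the gene lists below. Without the 3 libraries under a relative depth of 0.25, which were axonal libraries 2 and 5 and somatodendritic library 6, 12 genes were higher and 13 lower. With the replicate number as a block the counts were 11 and 2. Leaving out single libraries gave between 21 and 262 higher and between 3 and 178 lower genes, with the lowest counts without somatodendritic library 5 and the highest without axonal library 4. The count of higher genes moved by more than 1.5 times for every single library but axonal library 5. The fewest lower genes, 3, were also left without somatodendritic library 1, and 56 higher and 13 lower genes were left without the library labelled axonal knockdown 1. Without axonal libraries 2, 3, 4, 5 and 6 in turn, 50, 207, 262, 123 and 41 genes were higher and 25, 171, 178, 54 and 15 lower. Without somatodendritic libraries 1 to 6 in turn, 37, 39, 48, 56, 21 and 47 were higher and 3, 5, 11, 15, 3 and 15 lower. Of the calls, 19 higher and 3 lower genes were kept in all 12 of these fits. The split between directions depended on the scaling, since 67.0% of the calls were higher in axons here and 45.1% (73 higher, 89 lower) with FPKM as deposited, where the median over all genes was -0.24. After quantile normalization 51.4% were higher (200 higher, 189 lower).

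**Figure D1:**
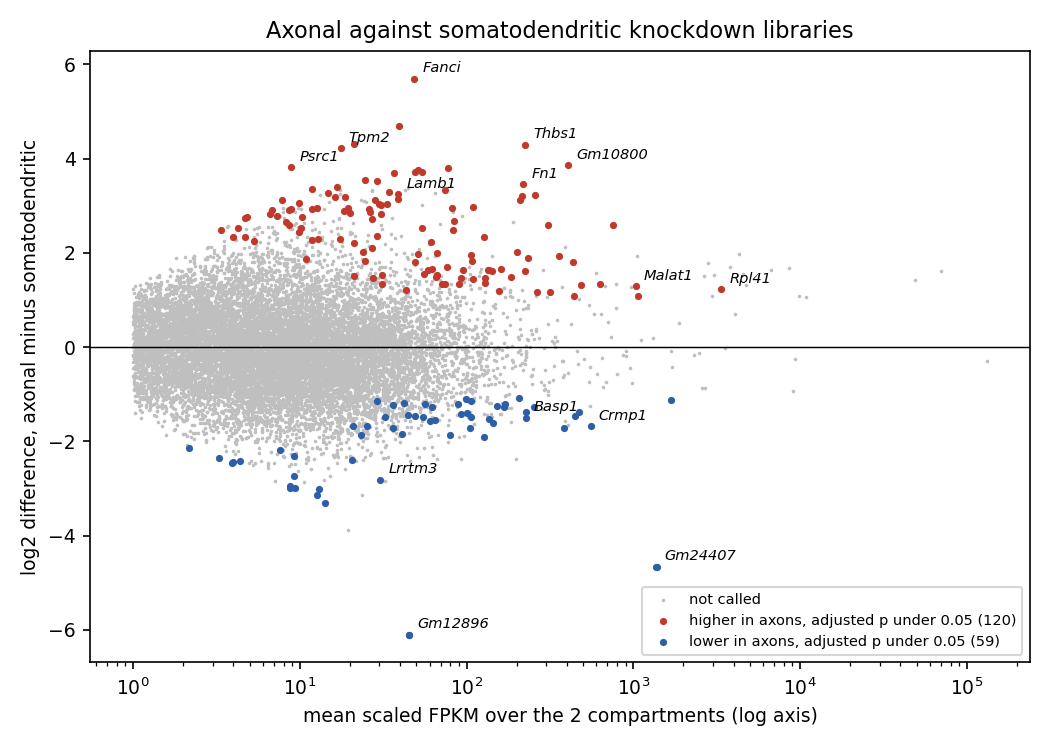
Log2 difference between axonal and somatodendritic knockdown libraries (vertical axis) against the mean scaled FPKM of the compartments (horizontal log axis), 1 point per gene tested. The 120 genes called higher in axons are red and the 59 called lower are blue, and the lowest points are the pseudogenes Gm12895 and Gm12896 at -6.10.

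The protein-coding genes with the largest differences towards axons included those of extracellular matrix and actin-binding proteins. The rule took the 12 with the largest difference among called genes whose groups did not overlap and whose mean reached 20 scaled FPKM in the higher compartment. Over all genes, 1.1% did not overlap with axons higher and 1.38% with axons lower. Fanci, a component of DNA crosslink repair, showed the largest difference. It ranged from 10.7 to 277 scaled FPKM in axons, with a median of 50.6, and was at 0 in 5 somatodendritic libraries and at 0.379 in the other. The log2 difference was 5.70 ± 0.67 (SE, limma adjusted p = 0.000759). Its exons overlap those of Polg, the mitochondrial DNA polymerase, which lay between 3.60 and 10.6 scaled FPKM in axons and between 0 and 26.1 in the somatodendritic libraries.

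Thbs1, the matrix glycoprotein thrombospondin 1, ran from 64.1 to 890 in axons with a median of 400, against 2.33 to 38.4 with a median of 19.3 in the somatodendritic libraries. That is a log2 difference of 4.30 ± 0.70 (SE, limma adjusted p = 0.0139). Fn1, fibronectin, ran from 75.4 to 671 with a median of 509 in axons and from 12.6 to 40.2 with a median of 30.99 on the other side, a log2 difference of 3.47 ± 0.51 (SE, limma adjusted p = 0.00727). In both genes axonal libraries 3 and 4 held the lowest axonal values. Lamb1, a laminin chain of basement membranes, was the most even of these genes, with 36.4 to 122 and a median of 61.6 scaled FPKM in axons against 2.92 to 12.4 and a median of 6.22. Its log2 difference was 3.25 ± 0.38 (SE, limma adjusted p = 0.000759).

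Tpm2, a tropomyosin that lies along actin filaments, ranged from 12.2 to 72.8 with a median of 29.8 scaled FPKM in axons and from 0 to 2.13 with a median of 0.542 in the somatodendritic compartment. The log2 difference was 4.23 ± 0.52 (SE, limma adjusted p = 0.00118). Cald1, the actin and myosin binding protein caldesmon, ranged from 64.0 to 254 with a median of 120 against 0 to 35.2 with a median of 14.5, a log2 difference of 3.33 ± 0.66 (SE, limma adjusted p = 0.0257). Pdlim1, which binds alpha-actinin, ranged from 7.16 to 139.5 with a median of 75.1 against 0 to 6.45 with a median of 5.48, a log2 difference of 3.69 ± 0.76 (SE, limma adjusted p = 0.0319). The lowest axonal value of Pdlim1, in library 4, thus lay just above the highest somatodendritic one. The remaining genes of this group were S100a11, a calcium-binding protein, at a log2 difference of 3.80, Col5a2, a fibrillar collagen chain, at 3.36, Serpinh1, the collagen chaperone Hsp47, at 3.29, and Loxl2, a collagen crosslinking enzyme, at 3.28. Their limma adjusted p values lay between 0.0132 for Col5a2 and 0.0452 for S100a11. The calls of Fanci, Thbs1, Tpm2, Fn1, Col5a2, Serpinh1 and Lamb1 were kept whichever single library was left out, and that of Loxl2 in 2 of 12 such fits. Without the 3 libraries under a relative depth of 0.25, the calls of Thbs1, Fn1, Serpinh1, Pdlim1, S100a11 and Loxl2 were lost.

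**Figure D2:**
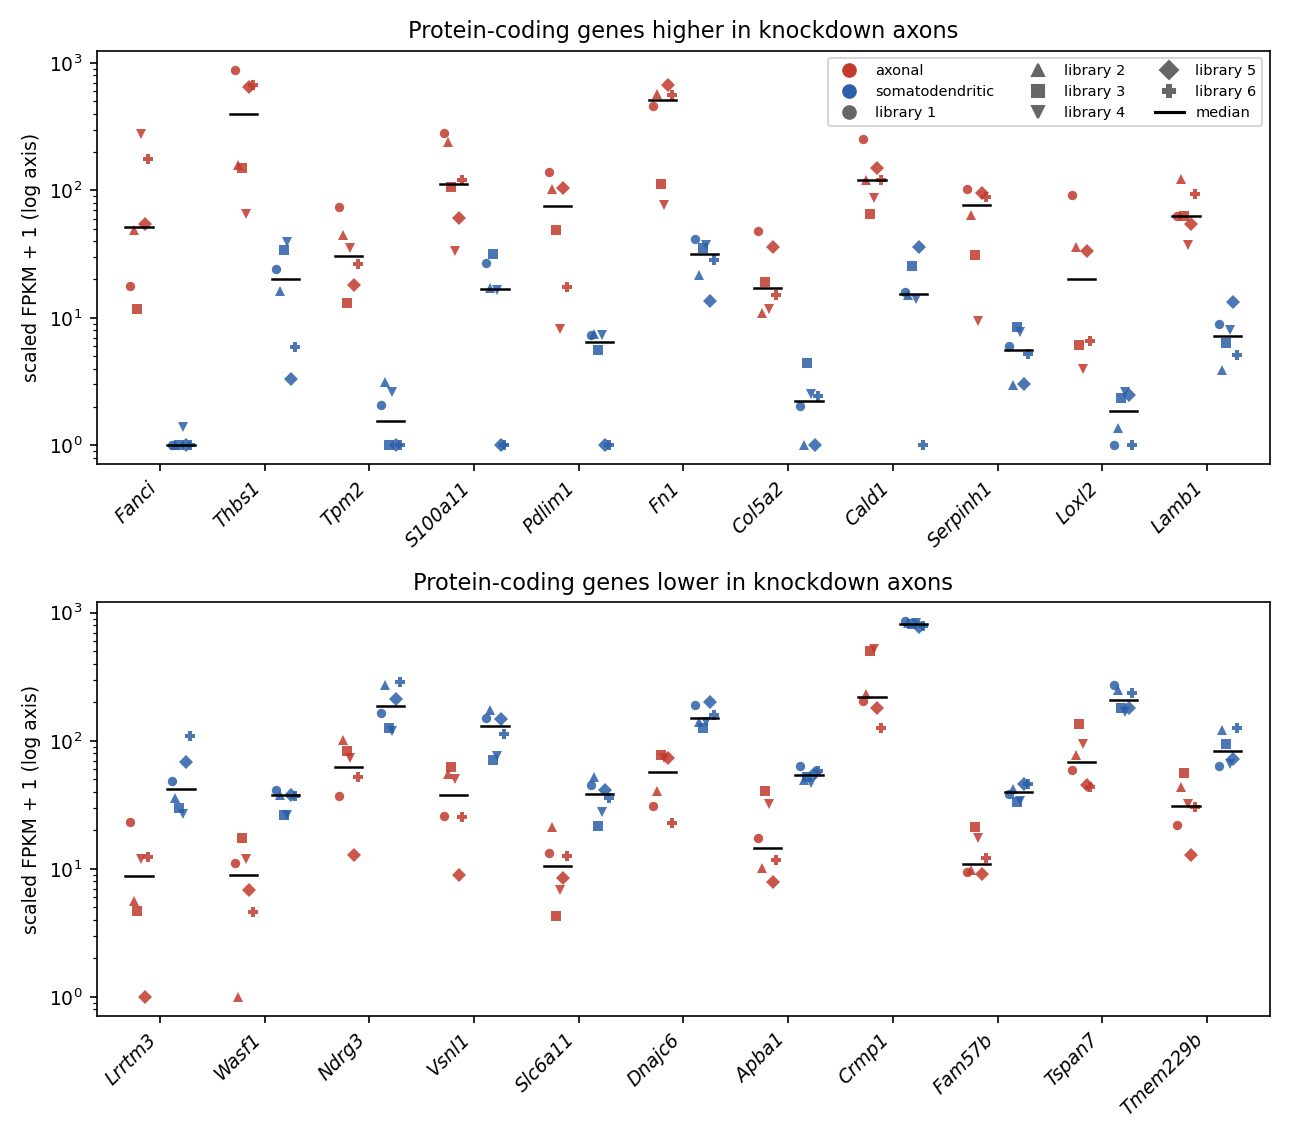
Scaled FPKM + 1 (log axis) of named protein-coding genes higher and lower in knockdown axons, with axonal libraries in red, somatodendritic libraries in blue, 1 symbol per library number and bars at the medians. The groups do not overlap for any gene shown, and axonal libraries 3 and 4 often lie nearest to the somatodendritic ones, as for Fn1 at 75.4 in library 4.

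Related genes were counted in lists. Of 30 actomyosin and focal adhesion genes, 16 were higher in axons and 0 lower, against 0.861% and 0.423% over all genes, with a median log2 difference of 2.32 against -0.06 over all genes. By limma 26 of the 30 were higher and 0 lower at an unadjusted p under 0.05, against 7.9% and 8.74%. They included Flna, an actin-crosslinking filamin, with 166 to 880 and a median of 507 scaled FPKM in axons against 33.6 to 126 and a median of 72.9, and Itgb1, the beta subunit of integrin matrix receptors, with 44.6 to 243 and a median of 149 against 10.7 to 32.3 and a median of 22.7. The log2 differences were 2.60 ± 0.42 for Flna and 2.48 ± 0.43 for Itgb1 (SE), and neither gene overlapped between compartments. Of 28 collagen and laminin genes tested, out of 55, 8 were higher and 0 lower, and 18 were higher and 0 lower at an unadjusted p under 0.05, beside the same shares over all genes. Their median was 1.66. Without axonal libraries 3 and 4, 24 actomyosin and 13 collagen and laminin genes were higher and 0 lower, against 3.72% and 3.89% over all genes in that fit. Both groups were put together after the values were seen, so that their counts are descriptions only. Vim, the intermediate filament vimentin, was also higher, and Tubb6 is a beta tubulin found in many cell types. Vim ran from 131 to 677 scaled FPKM with a median of 284 in axons and from 41.4 to 125 with a median of 108 in the somatodendritic compartment, a log2 difference of 1.88 ± 0.39 (SE, limma adjusted p = 0.032). Tubb6, with a log2 difference of 2.51, did not pass (limma adjusted p = 0.0936).

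Marker genes of fibroblasts and meningeal cells were in the same direction as the matrix and actomyosin genes. Of 8 such genes, 6 were tested and Col1a1, Fn1 and Cd248 were called higher in axons, against 0.861% over all genes, with a median log2 difference of 2.44. Their summed level ran from 123 to 785 scaled FPKM in axons and from 17.8 to 53.1 in the somatodendritic libraries. Col1a1, the type I collagen chain, ran from 7.20 to 59.9 with a median of 26.2 against 0 to 8.12 with a median of 1.84. The fibroblast proteoglycan genes Dcn and Lum had medians of 0 in both compartments. The part of fibroblast-type RNA in the matrix and actomyosin differences was not tested, and fewer cells of a type and less RNA per cell cannot be told apart in such bulk libraries. Of the genes of cell division none was called by limma, with 8 of 29 higher and 0 lower at an unadjusted p under 0.05, against 7.9% and 8.74% over all genes, and a median of 0.98. Their summed level lay between 237 and 951 scaled FPKM in axons and between 123 and 258 in the somatodendritic libraries. Among 10 marker genes of neural progenitors and dividing cells, whose sum ran from 64.7 to 484 against 91.4 to 141, none was called by limma, 4 were higher and 1 lower at an unadjusted p under 0.05, against the same shares, and the median was 1.05. With axonal libraries 3 and 4 left out, 3 fibroblast, 3 cell division and 4 progenitor genes were called higher and 0 lower, against 3.72% higher over all genes in that fit. Nes, the progenitor filament nestin, had medians of 34.7 and 6.25 scaled FPKM and a log2 difference of 2.59 (limma adjusted p = 0.0511).

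Markers of other cell types were summed in the same way. Of 7 astroglial markers, 6 were tested with a median of -0.91 and no call, and their sum was 43.9 to 681 in axons against 284 to 399. Summed levels of microglial markers were 2.65 to 78.9 and 4.93 to 28.8, those of endothelial markers 0 to 5.96 and 0 to 3.93, and those of erythroid markers 0 to 35.5 and 2.57 to 11.1. Schwann cell and oligodendrocyte markers summed to 9.21 to 32.1 in axons and 15.3 to 48.7 in the somatodendritic libraries, and skeletal muscle markers to 0 to 2.05 and 0 to 1.19. Of 9 motoneuron markers, Mnx1, Isl2, Chat and Slc5a7, which specify motoneurons or make and recycle acetylcholine, were listed at 0 in all 12 libraries. Isl1, the LIM homeodomain factor of motoneurons, was listed at 0 in every axonal library and lay between 0 and 7.90 in the somatodendritic ones, and Prph, peripherin, was at 0 in every axonal library and between 0 and 2.57 on the other side. The motoneuron markers summed to 1.57 to 7.72 scaled FPKM in axons and 8.99 to 22.2 in the somatodendritic libraries, and the summed pan-neuronal markers reached 710 to 1738 scaled FPKM in axons and 1951 to 2624 in the somatodendritic compartment. A listing at 0 can be a failed estimate and does not show absence, since Rps19, a ribosomal protein gene that every cell uses, was listed at 0 in somatodendritic libraries 1, 2 and 6 as well.

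**Figure D3:**
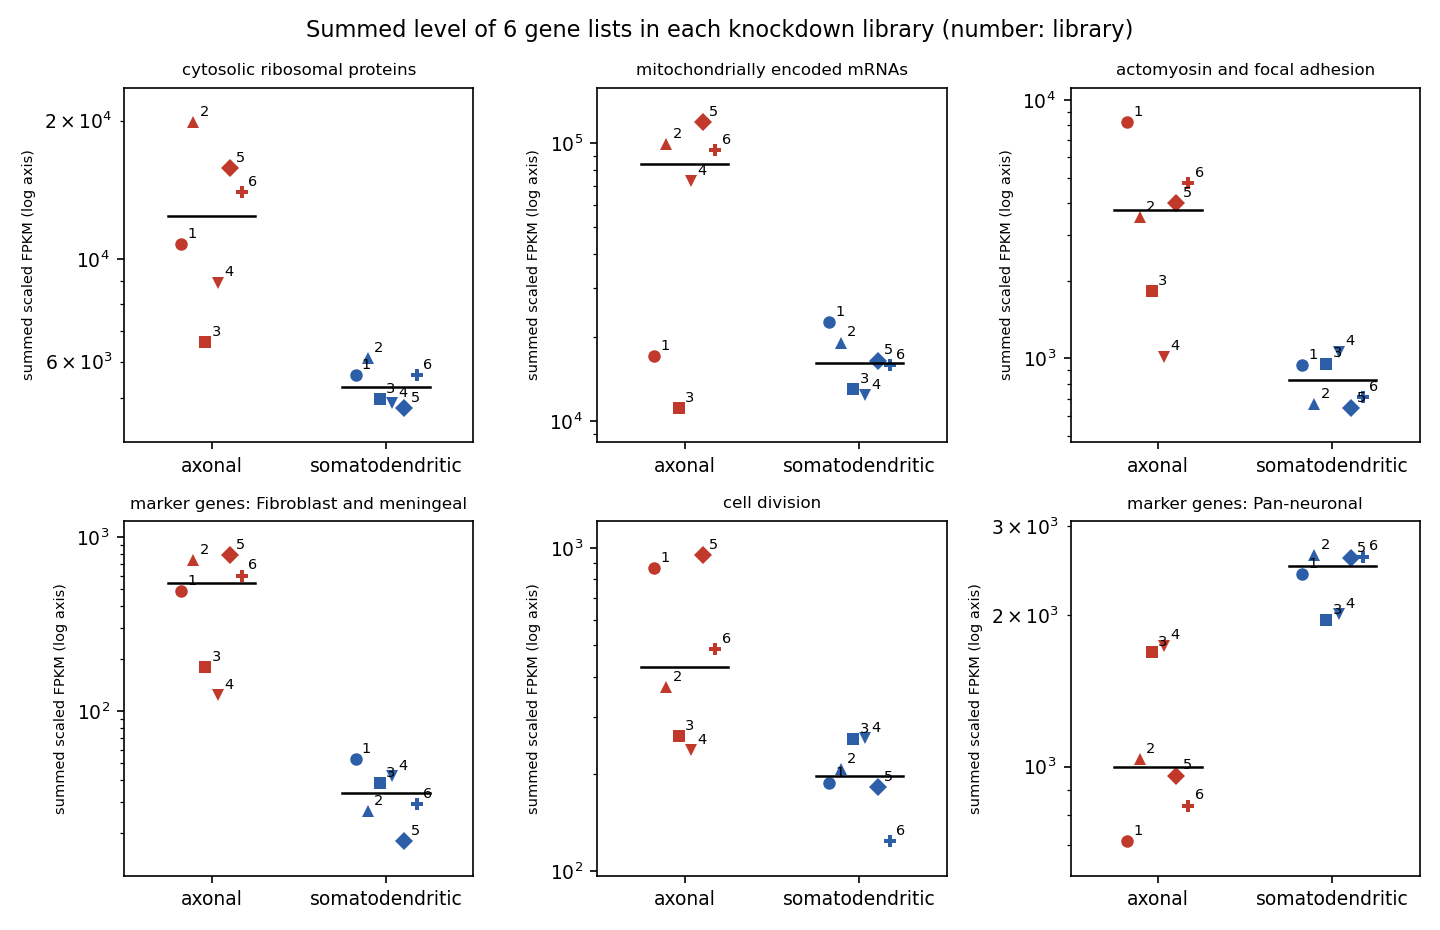
Summed scaled FPKM (log axis) of 6 gene lists in each knockdown library, with the library number beside each point and bars at the medians. Ribosomal protein genes lie between 6618 and 19882 in axons and between 4765 and 6113 in the somatodendritic compartment, and axonal libraries 3 and 4 hold the lowest fibroblast and the highest pan-neuronal marker sums of the axonal libraries.

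Cytosolic ribosomal protein genes were counted next. Of 79 members, all tested, 13 were called higher, 0 lower and 66 did not pass, against 0.861% higher over all genes. By limma 56 were higher and 0 lower at an unadjusted p under 0.05, against 7.9% and 8.74% over all genes, and the median was 1.09 against -0.06. Without axonal libraries 3 and 4, 39 were called higher, against 3.72% over all genes in that fit, and the median was 1.42. The median was 0.85 with FPKM as deposited and 0.995 after quantile normalization. The summed level had a median of 12405 scaled FPKM in axons and of 5295 in the somatodendritic libraries, and the ranges did not overlap, and 20 members did not overlap singly, against 1.1% with axons higher over all genes. Rpl32, a protein of the large subunit, ran from 152 to 624 with a median of 282 scaled FPKM in axons against 43.95 to 101 with a median of 71.9. Its log2 difference of 2.01 ± 0.33 (SE, limma adjusted p = 0.0139) was kept whichever library was left out. Rps19, of the small subunit, ran from 12.2 to 74.7 with a median of 27.3 against 0 to 14.3 with a median of 3.11, so that the groups overlapped narrowly, at a log2 difference of 3.18 ± 0.74 (SE, limma adjusted p = 0.0454). Rpl41 was the most abundant called member, with medians of 4942 and 1952 scaled FPKM. Rps3, a member that the study names, did not pass, with a log2 difference of 0.83 (limma adjusted p = 0.137). It lay between 34.5 and 81.2 in axons and between 24.5 and 33.1 in the somatodendritic compartment without overlap.

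Pseudogenes were called too. Of the 120 higher genes, 104 were protein coding, 15 were pseudogenes and 1, Malat1, was of another type. Among pseudogenes whose groups did not overlap and that reached 20 scaled FPKM, Gm10443 had the largest difference. It lies on chromosome 6, and all of its 31-base words occur in Rps28 transcripts. Its level ran from 321 to 975 with a median of 580 scaled FPKM in axons and from 77.5 to 221 with a median of 150 on the other side, a log2 difference of 1.94 ± 0.32 (SE, limma adjusted p = 0.0144). Gm5805 shared 51.4% of its words with Rps14, at a log2 difference of 1.54. Rps23-ps and Gm13826 had 1.81 and 1.67. Reads of a pseudogene and of its parent gene cannot be told apart over shared words, so that these values and those of the parent genes are uncertain.

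Translation factors and nuclear-encoded mitochondrial genes gave few calls. Of 41 translation factors 6 were higher and 1 lower at an unadjusted p under 0.05, against 7.9% and 8.74% over all genes, and 1 was called, the neuronal elongation factor Eef1a2, which was lower in axons with medians of 48.7 and 155 scaled FPKM and a log2 difference of -1.40 ± 0.28 (SE, limma adjusted p = 0.0257). The median of the translation factors was 0.16, and -0.08 with FPKM as deposited. Eif4a2, an RNA helicase of initiation, had -0.38 (limma adjusted p = 0.508). Of 76 mitochondrial ribosomal protein genes 0 were called by limma, with 4 higher and 3 lower at an unadjusted p under 0.05 and a median of -0.18. Of 37 nuclear-encoded genes of respiratory complexes III and IV and ATP synthase 0 were called by limma, and 8 were higher and 3 lower at an unadjusted p under 0.05. Their median was 0.11, and -0.12 with FPKM as deposited, and their summed level ran from 3027 to 6581 with a median of 4414 scaled FPKM in axons and from 2777 to 3501 with a median of 3148 in the somatodendritic libraries. For 37 nuclear-encoded complex I genes 0 were called, 3 were higher and 2 lower at an unadjusted p under 0.05, and the median was 0.13, and -0.11 with FPKM as deposited. Atp5b, the beta subunit of ATP synthase, ranged from 92.1 to 141 scaled FPKM in axons and from 116 to 147 in the somatodendritic libraries, a log2 difference of -0.15 ± 0.21 (SE, limma adjusted p = 0.771). The 13 mRNAs of the mitochondrial genome, which encode respiratory chain subunits, had a median of 1.57. It was 1.32 with FPKM as deposited and 0.92 after quantile normalization. None was called by limma, yet 13 of 13 were higher at an unadjusted p under 0.05, and 11 were called higher without axonal libraries 3 and 4, against 3.72% over all genes in that fit. In the same fit 2 translation factors were higher and 1 lower, 1 mitochondrial ribosomal protein gene was higher and 0 lower, and 2 genes of complexes III and IV and ATP synthase were higher and 1 lower. The share of the 13 mitochondrially encoded mRNAs in all FPKM split the axonal libraries. It was 3.09% and 2.4965% in libraries 1 and 3 against 9.80% to 13.5% in libraries 2, 4, 5 and 6. The somatodendritic libraries lay between 2.54% and 4.32%.

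Neuronal genes were among those lower in knockdown axons. Of the 59 lower genes, 53 were protein coding, 3 pseudogenes and 3 of other types. Among 10 pan-neuronal markers, Tubb3 and Stmn2 were called lower and 0 higher, against 0.423% lower over all genes, 9 were lower at an unadjusted p under 0.05, against 8.74%, and the median was -1.35. With axonal libraries 3 and 4 left out, 8 of these markers were called lower, against 3.89% over all genes in that fit. Among lower protein-coding genes whose groups did not overlap and whose mean reached 20 scaled FPKM, the largest difference was that of Lrrtm3, a leucine-rich repeat protein that organises excitatory synapses. It lay between 0 and 22.0 with a median of 7.75 scaled FPKM in axons and between 25.9 and 108 with a median of 41.1 in the somatodendritic libraries, a log2 difference of -2.81 ± 0.62 (SE, limma adjusted p = 0.043). Wasf1, an activator of Arp2/3-driven actin assembly, lay between 0 and 16.3 with a median of 7.99 against 25.4 to 40.1 with a median of 36.4, a log2 difference of -2.39 ± 0.56 (SE, limma adjusted p = 0.0475). Crmp1, a collapsin response mediator that acts in growth cone signalling, was far more abundant, with 125 to 522 and a median of 217 in axons against 772 to 859 and a median of 821. The log2 difference was -1.67 ± 0.31 (SE, limma adjusted p = 0.0207). Axonal libraries 3 and 4 held the highest axonal values of Crmp1, and the somatodendritic libraries were nearly equal.

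Dnajc6, the cochaperone auxilin that uncoats clathrin vesicles, ranged from 21.7 to 76.6 with a median of 56.0 scaled FPKM in axons against 124 to 201 with a median of 149, a log2 difference of -1.72 ± 0.32 (SE, limma adjusted p = 0.0207). Tspan7, a tetraspanin of neurons, had medians of 67.4 and 207 scaled FPKM and a log2 difference of -1.60. Log2 differences were -1.91 for Ndrg3, -1.87 for the calcium sensor Vsnl1, -1.87 for the GABA transporter Slc6a11, -1.71 for the adaptor Apba1, -1.66 for Fam57b and -1.56 for Tmem229b. Limma adjusted p values of these 6 lay between 0.0207 for Fam57b and 0.0454 for Vsnl1. Exons of Fam57b overlap those of Aldoa. No call among these lower genes was kept in all 12 fits without 1 library.

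Growth cone and cytoskeletal mRNAs were among the lower genes. Of 30 actin and growth cone genes, Basp1, Crmp1, Dpysl2, Dpysl3 and Marcksl1 were lower and 0 higher, against 0.423% lower over all genes, whereas Actb, beta-actin, ranged from 1491 to 4075 scaled FPKM in axons and from 1112 to 1830 in the somatodendritic libraries (log2 difference 0.51, limma adjusted p = 0.305). Basp1, which binds lipid membranes in growth cones, ranged from 82.8 to 170 with a median of 108 in axons against 278 to 382 with a median of 335. Its log2 difference of -1.50 ± 0.22 (SE, limma adjusted p = 0.00727) was kept whichever library was left out. Gap43, its functional relative, had -1.26 and did not pass (limma adjusted p = 0.0523), and its axonal values reached 722, above the somatodendritic minimum of 634. Of 21 stathmins and microtubule-associated proteins 1 was called, Stmn2, with 85.3 to 187 and a median of 124 scaled FPKM against 249 to 375 and a median of 351, a log2 difference of -1.38 ± 0.24 (SE, limma adjusted p = 0.0177). At an unadjusted p under 0.05, 13 were lower and 0 higher, against 8.74% lower over all genes, and the median was -0.75. Stmn2 encodes a regulator of microtubule dynamics in growing axons. In the fit without axonal libraries 3 and 4, 8 genes of this list were lower and 0 higher, and 8 actin and growth cone genes were lower and 1 higher, against 3.89% and 3.72% over all genes in that fit.

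Tubulins did not move as one. Of 12 tested, Tubb2a and Tubb3 were called lower, against 0.423% over all genes. By limma 8 were lower and 2 higher at an unadjusted p under 0.05, against 8.74% and 7.9%, and the median was -0.81. Without axonal libraries 3 and 4, 6 were called lower and 1 higher, against 3.89% and 3.72% over all genes in that fit. Tubb2a ranged from 104 to 230 with a median of 132 scaled FPKM in axons and from 264 to 446 with a median of 352 in the somatodendritic compartment. The log2 difference was -1.27 ± 0.25 (SE, limma adjusted p = 0.0229). Tubb3, the neuronal beta tubulin, ranged from 135 to 346 with a median of 239 against 397 to 871 with a median of 705, a log2 difference of -1.45 ± 0.29 (SE, limma adjusted p = 0.0251). Tuba1b had medians of 168 and 259 and a log2 difference of -0.48 (limma adjusted p = 0.312). None of the neurofilament genes passed with all 12 libraries, although Nefl, the light chain, had medians of 13.1 and 36.0 scaled FPKM and a log2 difference of -1.43 ± 0.36 (SE, limma adjusted p = 0.0598). Map2 had medians of 366 and 481 and a log2 difference of -0.56 (limma adjusted p = 0.311), and Uchl1, a neuronal deubiquitinase, had -0.95 (limma adjusted p = 0.213).

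Synaptic genes were counted by side of the synapse. Of 28 presynaptic vesicle and release genes, 2 were called lower and 0 higher, against 0.423% lower over all genes. At an unadjusted p under 0.05, 16 were lower and 0 higher, against 8.74% lower over all genes, and the median was -1.03. Among 31 postsynaptic and dendritic genes 0 were called by limma, 10 were lower and 0 higher at an unadjusted p under 0.05, and the median was -0.81. For 34 voltage-gated ion channel genes these values were 0, 8, 0 and -0.66. Without axonal libraries 3 and 4, 14 presynaptic, 7 postsynaptic and 2 channel genes were called lower, against 3.89% over all genes in that fit.

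**Figure D4:**
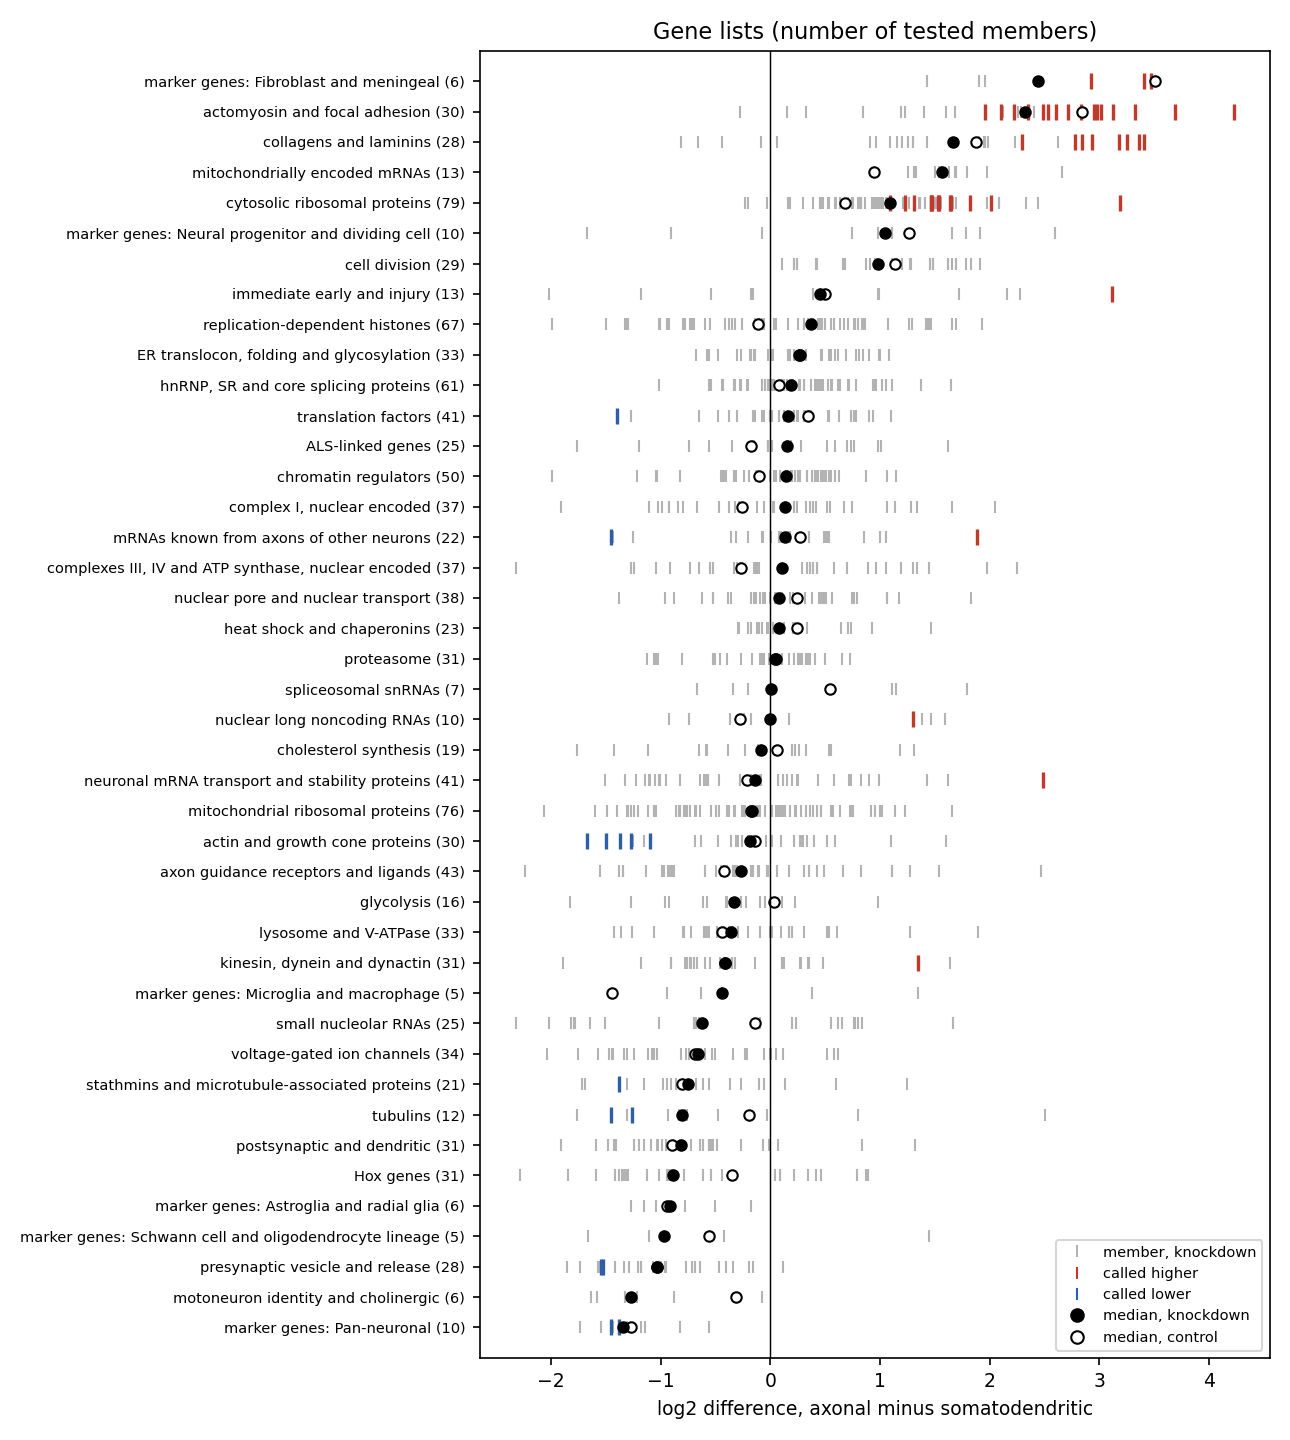
Log2 difference between compartments (horizontal axis) of the members of each list with at least 5 tested members, as grey ticks, with called members in red or blue, the median in knockdown as a filled and in control as an open circle. The lists run from a knockdown median of -1.35 for pan-neuronal markers to 2.44 for fibroblast and meningeal markers.

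Transport and RNA-binding genes gave single calls, beside 0.861% called higher over all genes. Kif5b, the ubiquitous kinesin heavy chain, was tight within both groups, with 40.7 to 55.7 and a median of 42.9 scaled FPKM in axons against 12.9 to 21.3 and a median of 17.6. Its log2 difference of 1.35 ± 0.26 (SE, limma adjusted p = 0.0229) was the 1 call among 31 kinesin, dynein and dynactin genes with all 12 libraries, whose median was -0.41. Igf2bp1, which binds beta-actin mRNA in transport granules, was the 1 call among 41 mRNA transport and stability genes. It ranged from 1.13 to 19.5 with a median of 4.46 in axons and was at 0 in 5 somatodendritic libraries and at 0.406 in the other, a log2 difference of 2.49 ± 0.54 (SE, limma adjusted p = 0.0366). This call rested on a mean of 0.651 implied fragments per library and was kept in 3 of 12 fits without 1 library. Gadd45a, a stress response gene, was the 1 call among 13 tested immediate early and injury genes, with medians of 16.3 and 0 and a log2 difference of 3.12 ± 0.59 (SE, limma adjusted p = 0.0207). Of 25 ALS-linked genes tested none was called by limma, and 2 were higher and 2 lower at an unadjusted p under 0.05, against 7.9% and 8.74% over all genes. Of 22 mRNAs known from axons of other neurons, Vim was higher and Tubb3 lower. In the fit without axonal libraries 3 and 4, 2 motor protein genes were higher and 5 lower, 2 mRNA transport and stability genes were higher and 7 lower, and 3 immediate early and injury genes were higher and 1 lower, against 3.72% and 3.89% over all genes in that fit. There 0 ALS-linked genes were higher and 1 lower by limma, and 3 of the mRNAs known from other axons were higher and 3 lower.

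Malat1, a long noncoding RNA retained in nuclear speckles, was higher on the axonal side of the knockdown cultures. It ranged from 944 to 1909 with a median of 1444 scaled FPKM in axons and from 429 to 860 with a median of 542 in the somatodendritic libraries, without overlap. The log2 difference was 1.30 ± 0.23 (SE, limma adjusted p = 0.0176). Meg3, a nuclear noncoding RNA, had 0.17 ± 0.42 (SE, limma adjusted p = 0.882), and no other of the 10 nuclear long noncoding RNAs was called with all 12 libraries. Without axonal libraries 3 and 4, 1 was called higher, again Malat1 (log2 difference 1.22, limma adjusted p = 0.011), and 1 was called lower.

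No gene with at least 1 scaled FPKM in each of the 6 somatodendritic libraries was listed at 0 in all 6 axonal libraries, out of 7776 genes that reached that level. A listing at 0 stands for at most 0.001 FPKM. Of these, 13 genes were at 0 in 5 axonal libraries, and 7 of the 13 had their single axonal value in library 3. The strongest were the processed pseudogenes Gm12895 and Gm12896 on chromosome 4, at 56.4 to 105 scaled FPKM with a median of 90.5 in the somatodendritic libraries and at 0 in all axonal libraries but the library labelled axonal knockdown 1, where both were at 3.65. The log2 difference of -6.10 ± 0.44 (SE, limma adjusted p = 1.32e-06) was the largest of all 13942 genes and was kept whichever library was left out. Both genes rested on a mean of 6.41 implied fragments in the somatodendritic libraries. The remaining genes were less abundant, among them Trnp1, a nuclear protein of neural progenitors, with a median of 11.2, Htr7, a serotonin receptor, with 4.62, and Lhx2, a LIM homeodomain factor, with 2.17 scaled FPKM.

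Gm12895 and Gm12896 are annotated as separate genes at chr4:122455210-122455435 and chr4:122122847-122123072 (GRCm38, plus strand). The last 224 of the 226 bases of Gm12895 are the first 224 of Gm12896, so that reads cannot be assigned to either. The sequence of Gm12896 in GENCODE M21 is printed because it carries the largest compartment difference, and its G and C bases make up 72.1%.
Gm12896: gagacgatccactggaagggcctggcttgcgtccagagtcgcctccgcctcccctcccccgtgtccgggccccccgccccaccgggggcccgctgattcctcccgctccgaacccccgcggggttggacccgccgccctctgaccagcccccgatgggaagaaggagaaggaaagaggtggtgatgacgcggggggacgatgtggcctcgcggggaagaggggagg

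The small nuclear RNA genes Gm24265 (chr5:115489459-115489599) and Gm24407 (chr5:115490254-115490394, both on the plus strand of GRCm38) gave the next largest differences among the lower genes. They differ by the substitutions G88A and C99A, counted from the first base of Gm24265, which are in capitals in both GENCODE M21 sequences.
Gm24265: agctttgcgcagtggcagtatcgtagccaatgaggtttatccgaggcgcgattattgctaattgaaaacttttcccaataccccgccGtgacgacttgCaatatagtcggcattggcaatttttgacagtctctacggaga
Gm24407: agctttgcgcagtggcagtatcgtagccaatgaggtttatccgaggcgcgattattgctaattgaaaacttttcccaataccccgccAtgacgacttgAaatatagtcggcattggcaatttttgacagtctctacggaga
Gm24407 lay between 0 and 437 scaled FPKM with a median of 198 in axons and between 832 and 5373 with a median of 2313 in the somatodendritic libraries. The log2 difference was -4.66 ± 1.10 (SE, limma adjusted p = 0.0494) for both genes, and both calls were kept in 2 of 12 fits without 1 library. At 141 bases these are short genes, for which FPKM is uncertain.

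The control libraries gave a comparison of the same compartments with no library in common. In them 538 of 13699 genes were higher (3.93%) and 401 lower (2.93%) in axons. Of the 120 genes higher in knockdown axons, 119 were tested in control, 116 had the same direction and 73 were called there, and 0 were called in the other direction. Of the 59 lower genes, 58 had the same direction in control, 33 were called and 0 were called in the other direction. The median of the 120 was 2.51 in knockdown and 1.76 in control, and that of the 59 was -1.66 and -1.21. The genes were selected in knockdown, so that its medians are the larger by choice. Across all 12739 genes tested in both, the log2 differences correlated at r = 0.527, as a description.

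**Figure D5:**
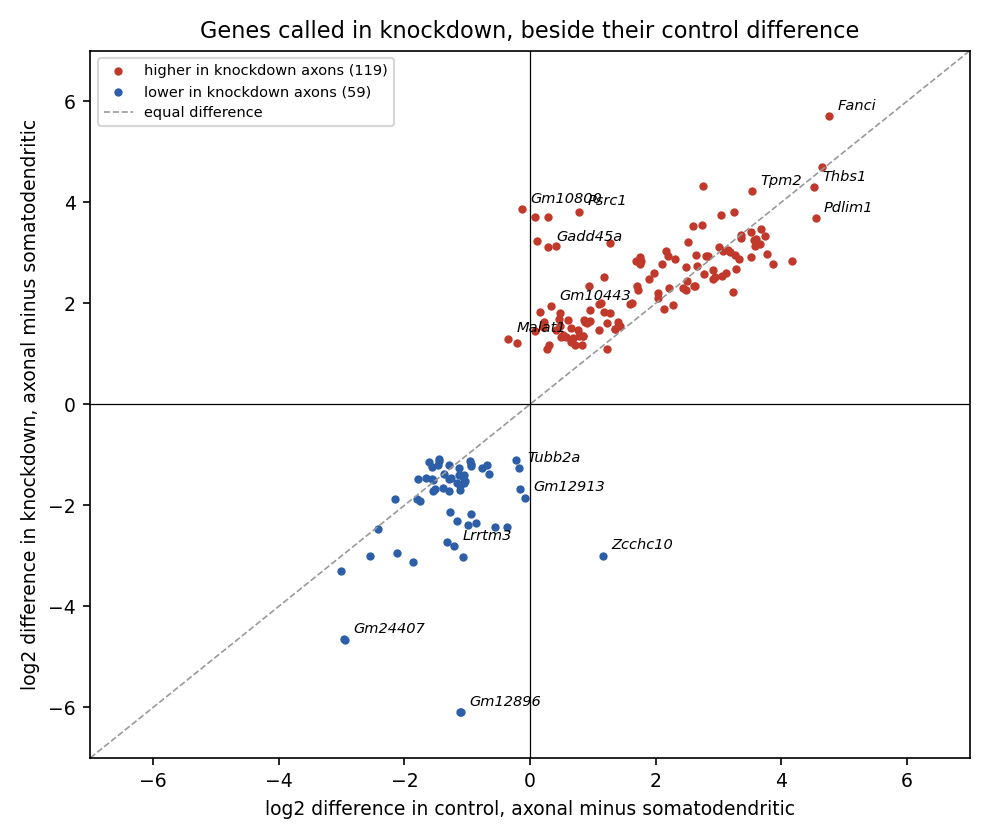
Log2 difference between axonal and somatodendritic libraries in knockdown (vertical axis) against control (horizontal axis) for the genes called in knockdown, 119 higher in red and 59 lower in blue, with a dashed line of equal difference. Of the red points 116 lie right of 0 and of the blue points 58 lie left of 0, and Gm12896, Malat1 and Zcchc10 lie far from the line.

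Named matrix and neuronal genes had these values in both conditions. The log2 difference of Fn1 was 3.47 in knockdown and 3.68 in control, that of Lamb1 3.25 and 3.56, that of Basp1 -1.50 and -1.54 and that of Stmn2 -1.38 and -1.37. Ribosomal protein genes had a median of 1.09 in knockdown and 0.68 in control, where 19 of 79 were called higher, against 3.93% over all genes in control. By limma 10 of the 79 had an unadjusted p under 0.05 for the difference between conditions, against 2.71% higher and 2.95% lower over all genes, and none was called. These 10 are not split by direction here. Rps29, a small subunit protein, had 1.82 in knockdown and 0.16 in control (limma adjusted p = 0.628 for the difference of 1.61 between them). Rps3 went the other way, with 0.83 in knockdown and 1.91 in control (limma adjusted p = 0.809 for the difference of -1.14). Tubb2a had -1.27 and -0.17 (limma adjusted p = 0.61 for the difference of -1.15). Malat1 had 1.30 and -0.35, a difference of 1.59 ± 0.32 (SE) that missed the threshold (limma adjusted p = 0.0683). Psrc1, which binds spindle microtubules, had 3.81 and 0.78, and Zcchc10 had -3.00 and 1.17, both with limma adjusted p values for the difference above 0.05. Psrc1, Zcchc10 and Rps29 were singled out after their values were seen.

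A direct test of whether the compartment difference itself differed between knockdown and control called 10 of 14018 genes, all lower in knockdown (0.0713%), and 0 higher. By limma 380 were higher and 414 lower at an unadjusted p under 0.05, or 2.71% and 2.95%. The 10 were tRNA, 5S ribosomal RNA, microRNA and pseudogene loci and Lars2, the mitochondrial leucyl-tRNA synthetase. Of these, Gm12896 and its near copy Gm12895 also passed within knockdown, and Gm12896 had a difference of -4.93 ± 0.58 (SE, limma adjusted p = 6.32e-05). The tRNA genes mt-Tf and mt-Ta of the mitochondrial genome were at 0 in each of the 12 knockdown libraries and in the somatodendritic controls. In axonal controls mt-Tf ranged from 42.1 to 185 and mt-Ta from 19.6 to 110 scaled FPKM. The 5S ribosomal RNA genes Gm24312, n-R5s118, n-R5s106 and n-R5s130 had identical values, at 0 in all 12 knockdown libraries and between 18.0 and 51.1 in axonal controls. For these 6 genes the difference therefore came from the control side, and nothing can be said of their place within knockdown cells. Lars2 lay between 1123 and 1698 scaled FPKM in knockdown axons and between 1705 and 2152 in the somatodendritic compartment (log2 difference -0.41, limma adjusted p = 0.253) against 1.79 in control. The microRNA gene mmu-mir-6236 had -0.12 in knockdown and 2.25 in control.

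The mitochondrial tRNA genes (chrM:1-68 on the plus and chrM:5018-5086 on the minus strand of GRCm38) are printed from GENCODE M21 because they had the largest differences between conditions.
mt-Tf: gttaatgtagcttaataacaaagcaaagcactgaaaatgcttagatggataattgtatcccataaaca
mt-Ta: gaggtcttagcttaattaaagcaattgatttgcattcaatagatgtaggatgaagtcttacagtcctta

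Called genes differed in length as sets. The 104 protein-coding genes higher in knockdown axons had a median transcript length of 3263 bases with a lower quartile of 1236, the 53 lower ones had 3580 and 2719, and all 12187 tested protein-coding genes had 3523 and 2286. Median GC contents were 51.7%, 53.3% and 49.7%. These values are given without a test. Beside the overlaps given above, exons of Thbs1, Fn1, Loxl2, Apba1, Rpl32, Malat1, Kif5b, Igf2bp1, Gadd45a, Nefl, Tuba1b, Rps3, Eif4a2, Map2, Meg3 and Uchl1 overlap those of other annotated genes (for Nefl, its neighbour Nefm), and how the authors divided shared fragments is not given in the sources used here.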

How the data were processed

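RNA-seq was analysed from 12 knockdown and 8 control libraries. Per the file headers and the submitters' notes, the authors deposited FPKM values with 95% intervals for 39174 genes per library, made with Cufflinks 2.2.1 on GRCm38 after FastQC 0.10.1. Read counts were not used here. Scaling used median ratios to the geometric mean of 4899 genes that reached 1 FPKM in each of the 12 libraries. Genes with a mean of at least 1 were tested as log2(scaled FPKM + 1), which understates changes of low genes, with limma 3.58.1 (trend, Benjamini-Hochberg, R 4.3.3). The 8 control libraries and the difference of differences over 20 libraries were fitted likewise. The test was also run on simulated data in which every gene had the same spread. Those data lack the differences in likeness between libraries seen here, so that this run does not vouch for the calls. Implied fragments are (FPKM / SD) squared, with the SD from the deposited interval. Named were the targeted gene, the 12 protein-coding and 5 other genes of largest difference per direction (called, no overlap, mean of at least 20), up to 2 called genes per list and direction, genes at 0 in 1 compartment, genes called for the difference between conditions, and genes familiar or named by the study. The members and lists were chosen with earlier results of these data known. Alternatives covered scaling, pseudocount, filter, weights, replicate numbers and left-out libraries. Some genes and sequences that these rules name are not reported here.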

Additional observations from a re-analysis of the deposited data

Results flagged for a closer look

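Among 131 checks of single libraries within groups of 6, 13 stood apart from the rest of their group. In the axonal libraries these were Gm12895 and Gm12896 at 3.65 scaled FPKM in the library labelled axonal knockdown 1, Gm24265 and Gm24407 at 0 and Lars2 at 1123 in library 5, Gm12913 at 4.35 in library 4, Eif4a2 at 63.6 in library 2 and Map2 at 131 in the library labelled axonal knockdown 1. In the somatodendritic libraries these were Fanci at 0.379, Igf2bp1 at 0.406 and Gm12895 and Gm12896 at 56.4 in library 4 and Cald1 at 0 in library 6. Axonal library 5 and somatodendritic library 6 were the shallowest of their groups.

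The compartment difference in knockdown minus that in control, on the log2 scale, was -6.95 for mt-Tf, -5.94 for mt-Ta, -4.93 for Gm12896, -4.92 for Gm12895, -2.25 for Lars2, -2.42 for mmu-mir-6236 and -5.01 for each of Gm24312, n-R5s118, n-R5s106 and n-R5s130, all past the limma threshold.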

How the results depend on the processing

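Counts of genes higher and lower in knockdown axons were 120 and 59, and they became 73 and 89 with FPKM as deposited, 200 and 189 after quantile normalization, 55 and 19 with a pseudocount of 0.1, 146 and 101 with 5, 36 and 16 without a filter, 223 and 182 with array weights, 413 and 343 with all 20 libraries in 1 fit and 25 and 4 without a mean-variance trend. Leaving out single libraries gave 21 to 262 and 3 to 178. Alternatives chosen after seeing the data gave 515 and 539 without axonal libraries 3 and 4, 198 and 171 without axonal libraries 1 and 3, and 12 and 13 without the 3 libraries under a relative depth of 0.25. In control, 538 and 401 became 344 and 1711 as deposited and 257 to 825 and 105 to 736 without single libraries. The difference between conditions, 0 higher and 10 lower, became 2 and 10 as deposited and 0 to 3 and 10 to 14 without single libraries. Genes listed at 0 in every axonal library numbered 0, and 0 to 7 without single axonal libraries.

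The labels do not say that a replicate number marks a shared culture. Same-numbered compartments deviated together at r between -0.04 and 0.04 over 6 pairs, and 1 of 12 libraries correlated best with its own number, so that the libraries were treated as unpaired, although a shared culture is not excluded by this. With a replicate block the counts were 11 and 2 in knockdown, 324 and 136 in control and 0 and 6 for the difference between conditions.

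For named genes, 1548 of the single-gene values kept their side of the threshold, 405 fell short of it, 22 newly passed and none past the threshold in either setting changed sign. The causes were not tested. With a median of 0.56 to 3.83 implied fragments per gene, single values of low genes carry a large counting error, although some were called. These fragment numbers come from the interval of each library and do not cover the spread between libraries.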

Other observations

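Predicted genes with shared sequence formed a separate group among those higher in knockdown axons, chosen here after their values were seen. Gm10800, Gm10801, Gm10717, Gm10719 and Gm21738 are typed as protein coding in the files, and between 32.7% and 51.3% of the 31-base words of each occur in the other 4, so that their reads cannot be told apart fully. Gm10800 ranged from 107 to 2623 scaled FPKM with a median of 327 in axons and from 10.7 to 148 with a median of 22.4 in the somatodendritic libraries, so that the groups overlapped. Its log2 difference was 3.86 in knockdown (limma adjusted p = 0.0207) and -0.13 in control (limma adjusted p = 0.956). Gm21738 had 3.71 and 0.28 and Gm10801 had 3.22 and 0.12.

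Several single genes outside the lists were called as well. Psrc1, which binds spindle microtubules, ranged from 2.64 to 26.1 with a median of 18.7 scaled FPKM in axons and was at 0 to 1.01 in the somatodendritic libraries (log2 difference 3.81 ± 0.54, SE, limma adjusted p = 0.00609), and its call was kept whichever library was left out. Timp2, an inhibitor of matrix metalloproteinases, ranged from 104 to 219 with a median of 155 against 35.7 to 94.0 with a median of 51.9, at 1.45 in knockdown (limma adjusted p = 0.0224) and 0.08 in control.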
